A study of Mus musculus with 3 samples.

Results

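A set of 10 genes of the heart muscle programme was followed in mouse fibroblasts that received a lentivirus with a set of transcription factors: the troponins Tnnt2, Tnnc1 and Tnni3, the myosins Myl7, Myh6 and Myh7, the actin Actc1, the natriuretic peptides Nppa and Nppb, and the calcium release channel Ryr2. They were chosen by name, as the array probes whose transcript accession maps to these symbols, and are 10 of 20573 genes that could be named on the array. Each was read in 3 groups, all labelled as female mouse and each hybridised to 1 one-colour (Cy3) array from RNA pooled over 5 samples. MF were primary spleen fibroblasts from spleens remodelled with SiO2, collected 14 days after transduction with LV-NC, and are the control. The iHep group held hepatocyte-like cells obtained from the same kind of fibroblasts, collected 14 days after transduction with LV-3TF. PH were primary hepatocytes, used fresh from isolation as the positive control and given no virus in the labels. The labels do not name the 3 factors of LV-3TF. GATA4 is taken here to be among them, which is not from the labels.

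GATA4 is a zinc finger transcription factor that binds the DNA core GATA and works in several organs. In the embryonic heart it acts with NKX2-5, TBX5, MEF2C and serum response factor (SRF) on the genes of the sarcomere, the contractile unit of striated muscle, and on the natriuretic peptides. In the embryonic liver the same factor acts beside other liver factors, and it is used together with such factors to turn fibroblasts towards hepatocytes. The comparison asks whether genes of the heart programme were read at other levels in iHep than in MF and PH.

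The promoters of the cardiac genes show where GATA motifs lie near the starts of transcription. RefSeq promoter windows (assembly GRCm38.p6, from 250 bases before to 50 bases after the start) were found for all 10 genes, 12 windows in all, since Tnnt2 and Myh7 have a second start. A GATA motif (the letters AGATAA, or else the letters AGATAG, or in the other form the letters TGATAA, or else the letters TGATAG, searched on both strands) was found in 5 of the 12 windows (41.7%), against 29.8% of 32851 windows of all genes. It was present before Tnnt2, Myl7, Myh6, Nppa and Nppb, and Nppb held it at 2 places. The SRF CArG box was found before Myl7 and Actc1, in 16.7% of the member windows against 1.63% of all windows, and the MEF2 box in none against 3.19%. No match of 1 motif overlapped another. A match is a run of letters and no measure of binding. The 250 bases before the start are printed for the gene with the highest reading in iHep (Tnnt2, first start, chr1:135836084-135836333, plus strand), the natriuretic peptide genes (Nppa, chr4:148000472-148000721, and Nppb, chr4:147985650-147985899, both plus strand) and the window that holds both a CArG box and a GATA motif (Myl7, chr11:5898783-5899032, minus strand). Capitals mark the matches.
Tnnt2: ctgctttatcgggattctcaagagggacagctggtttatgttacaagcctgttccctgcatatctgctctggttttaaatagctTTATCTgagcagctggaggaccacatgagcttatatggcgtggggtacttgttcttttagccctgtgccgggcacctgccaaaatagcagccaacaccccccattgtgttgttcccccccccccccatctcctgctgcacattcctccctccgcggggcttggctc
Nppa: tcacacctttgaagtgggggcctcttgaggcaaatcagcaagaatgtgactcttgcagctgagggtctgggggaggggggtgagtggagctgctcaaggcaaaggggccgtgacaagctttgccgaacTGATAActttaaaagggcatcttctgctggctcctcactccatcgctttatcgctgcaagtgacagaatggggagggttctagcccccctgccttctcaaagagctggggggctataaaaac
Nppb: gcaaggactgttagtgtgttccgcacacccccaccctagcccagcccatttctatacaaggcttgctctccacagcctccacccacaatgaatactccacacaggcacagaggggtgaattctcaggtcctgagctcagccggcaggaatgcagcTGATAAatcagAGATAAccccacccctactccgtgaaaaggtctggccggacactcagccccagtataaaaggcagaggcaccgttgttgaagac
Myl7: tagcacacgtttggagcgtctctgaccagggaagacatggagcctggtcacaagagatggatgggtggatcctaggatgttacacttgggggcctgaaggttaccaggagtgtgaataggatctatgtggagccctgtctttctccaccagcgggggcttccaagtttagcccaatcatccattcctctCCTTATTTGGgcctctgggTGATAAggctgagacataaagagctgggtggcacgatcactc
In Tnnt2 the match TTATCT lies at positions -166 to -161 before the start and reads AGATAA on the opposite strand. In Nppa TGATAA lies at -122 to -117, and in Nppb TGATAA lies at -95 to -90 with AGATAA at -84 to -79. In Myl7 the CArG box lies at -61 to -52 and TGATAA at -42 to -37. The window of Myh6, not printed, holds a match on the opposite strand at -235 to -230.

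**Figure D1:**
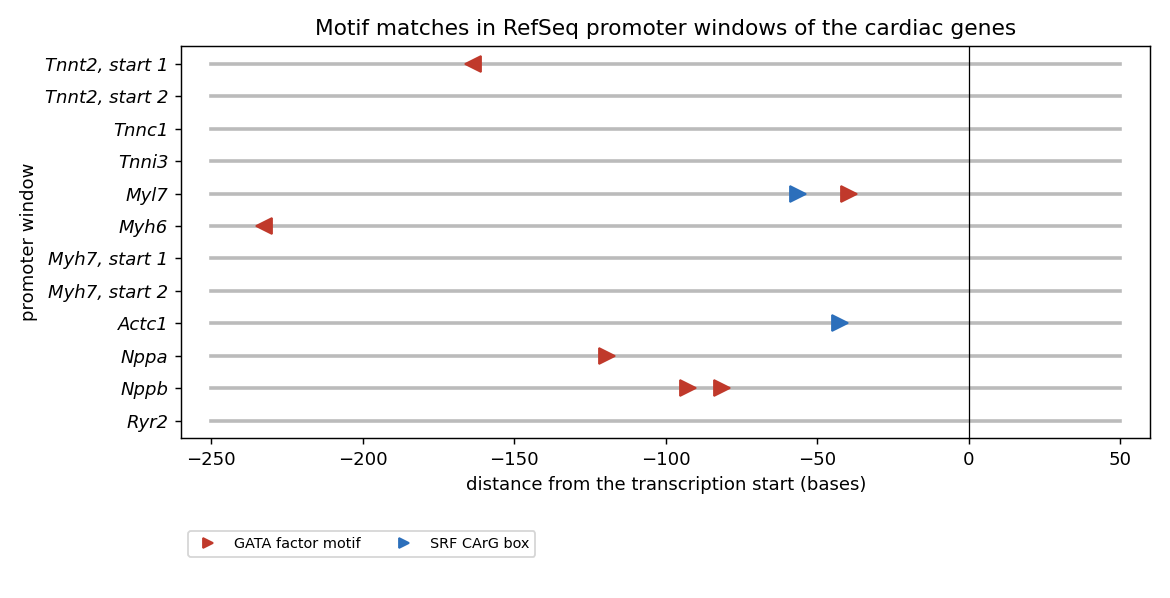
Matches of the GATA motif (red) and the SRF CArG box (blue) in the 12 RefSeq promoter windows of the cardiac genes; the horizontal axis is the distance from the transcription start in bases, and triangles point right for a match on the gene's strand and left for the opposite strand. Tnnt2 (first start), Myl7, Myh6, Nppa and Nppb carry GATA matches, and Myl7 and Actc1 carry a CArG box.

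Levels are given as log2 of the processed signal minus the log2 of the 75th percentile of signals on the same array, so a level of 0 is the 75th percentile. With 1 array per group there is no error between samples and no test, and precision is limited by how few arrays there are. Differences were counted at a fixed 2-fold threshold. Where a gene was well above background on only 1 of the arrays compared, its difference is a bound against the lowest level well above background on the dim array. Those lowest levels were -6.30 on MF, -7.32 on iHep and -6.89 on PH, and the MF array was the dimmest, with a 75th percentile signal of 544.3 against 3751.5 on iHep and 2080.9 on PH. The iHep and PH arrays were read in the same scan and MF in another, so scan and group cannot be told apart in comparisons with MF. The SD of a difference between replicate spots, for probes printed 10 times with levels under -3, was 0.25 for iHep against MF, 0.26 for PH against MF and 0.24 for iHep against PH, and this technical spread stands in for no other error.

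The pools were checked against marker genes of cell types. Over all named genes, 72.9% were above background on MF, 79.6% on iHep and 84.5% on PH. The MF pool carried fibroblast markers (summed level, as multiples of the 75th percentile, of 501.6 on MF, 32.9 on iHep and 44.1 on PH; 8 of 8 above background on MF, led by Col1a1 and Thy1) and smooth muscle markers (139.2, 10.3 and 10.6; 6 of 6 on MF, led by Tagln and Acta2). Macrophage markers were read in MF as well (86.5 on MF, 1.47 on iHep and 95.6 on PH, led by C1qc on MF and Csf1r on PH). Hepatocyte markers summed to 0.329 on MF, 2.41 on iHep and 512.1 on PH, where all 8 were above background. In iHep most of the sum was Hnf4a, at a level of 1.04. Of 7 compared between iHep and MF, only Hnf4a was at least 2-fold higher, 1 was lower and 5 did not pass the threshold. Over all genes compared, 19.9% were higher and 23.5% lower. Quantile normalization gave 2 higher and 1 lower, beside 20.9% and 21.0% of all genes, and median scaling gave the same 2 counts. Normexp gave 1 higher and 2 lower, beside 11.7% and 30.9% of all genes. Endothelial markers summed to 1.07, 0.697 and 13.5 at the probes used, led by Cdh5 on PH at a level of 3.19. A second Kdr probe, left out of these sums, had levels of -1.26 on MF, -5.73 on iHep and 4.95 on PH. The PH sum is thus lower than that probe would give. In pooled RNA, fewer cells of a type and less RNA per cell cannot be told apart. The part of these other cells in the cardiac gene readings was not tested.

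Gata4 itself had a level of -2.80 in MF, -0.76 in iHep and 1.88 in PH. It was 4.10-fold higher in iHep than in MF and 6.25-fold lower in iHep than in PH; under normexp the log2 difference from MF was 1.41 in place of 2.04. Whether its probe reads a viral copy was not tested.

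In iHep against MF, 1 of the 8 cardiac genes that could be compared was at least 2-fold higher, 3 were at least 2-fold lower and 4 did not pass the threshold; Ryr2, among these 4, has only a lower bound. The gene that was higher was Tnnt2, at 38.6-fold, and the genes that were lower were Tnni3, Nppb and Myh6. Over all genes compared the same threshold was passed upward by 19.9% and downward by 23.5%. The median difference of the cardiac genes was -0.18 on the log2 scale, against 0.00 over all 17172 genes. Neither Myl7 nor Actc1 stood well above background on these arrays, and they were not compared. After another background correction (normexp), 1 cardiac gene was higher and 6 were lower, where all genes gave 11.7% higher and 30.9% lower.

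**Figure D2:**
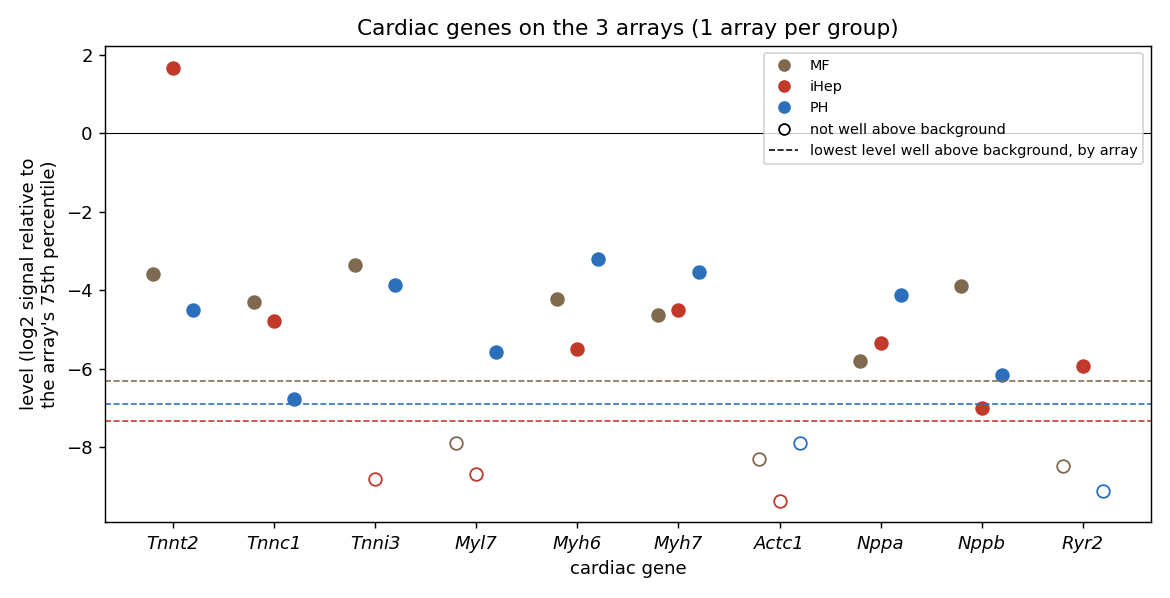
Levels of the 10 cardiac genes (log2 signal relative to the array's 75th percentile) on the MF, iHep and PH arrays, 1 point per array; open points were not well above background and dashed lines mark each array's lowest level well above background. Tnnt2 in iHep, at 1.68, is the only point above 0, and Actc1 is open on all 3 arrays.

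The thin filament of heart muscle is switched by the troponin complex, in which troponin T (Tnnt2) anchors the complex to tropomyosin, troponin C (Tnnc1) binds calcium and troponin I (Tnni3) holds contraction back. Tnnt2 had a processed signal of 45.4 in MF, 12060 in iHep and 91.8 in PH, or levels of -3.59, 1.68 and -4.50. It was high in iHep alone and dim, though well above background, in MF and PH. The difference of iHep over MF was 5.27 on the log2 scale, and the software's own error for the spot was 10.6% of the signal in MF, 10% in iHep and 10.8% in PH. Of the 17172 genes compared, 56 had a larger upward difference. Tnnt2 was read by 1 probe at 1 spot per array, and it was not compared in the authors' own values. Under normexp the difference was 4.27 and under quantile normalization 5.12.

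The other troponins did not follow Tnnt2. Tnnc1, also the troponin C of slow skeletal muscle, had signals of 27.8 in MF, 136.9 in iHep and 19.1 in PH, or levels of -4.29, -4.78 and -6.77. It was 1.40-fold lower in iHep than in MF, within the threshold, though -1.46 on the log2 scale under normexp, and lowest in PH, where it was only just above background. Tnni3, the cardiac troponin I, had signals of 53.2 in MF, 8.33 in iHep and 143.0 in PH, or levels of -3.35, -8.82 and -3.86. The iHep reading was not well above background while MF and PH were, and Tnni3 was at least 15.7-fold lower in iHep than in MF. That bound fell to a log2 difference of -2.95 when all arrays were held to the floor of the dimmest array, still past 4-fold.

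The skeletal muscle forms of troponin were read beside the cardiac forms. Tnnt1, the slow skeletal troponin T, had levels of -2.40, -1.70 and -0.85 in MF, iHep and PH, and was 1.62-fold higher in iHep than in MF. Tnnt3, the fast skeletal troponin T, had levels of -4.82, -6.41 and -5.34 at the probe used and was 3.00-fold lower in iHep than in MF. Its other probe had levels of -4.68, -8.74 and -9.19, and was not well above background in iHep or PH. Tnni2, the fast skeletal troponin I, was within 2-fold between iHep and MF (levels of -1.24 and -1.64). At the probes used, none of these 3 skeletal troponins differed by as much as Tnnt2.

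The myosins are the motor of the thick filament: Myh6 and Myh7 encode the alpha and beta heavy chains of heart muscle, which lie next to each other in the genome, and Myl7 encodes the atrial regulatory light chain. Myh6 had signals of 29.1 in MF, 83.0 in iHep and 228.0 in PH at the probe used, or levels of -4.22, -5.50 and -3.19, and was 2.42-fold lower in iHep than in MF. A second Myh6 probe had levels of -6.38 in MF, where it was not well above background, and -6.36 in iHep. Its PH spot read a signal of 3995, a level of 0.94, but was marked as non-uniform by the scanner software and left out. If that spot is kept, this probe becomes the brighter of the pair and the difference of iHep over MF turns from -1.27 to 0.02. In the authors' deposited table the same probe has log2 values of 4.66 in MF, 4.67 in iHep and 11.59 in PH. The Myh6 reading thus rested on the choice of probe.

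Myh7 had signals of 22.1 in MF, 165.7 in iHep and 180.2 in PH, or levels of -4.62, -4.50 and -3.53. Its difference of iHep over MF, 0.12, was smaller than the 0.25 spread between replicate spots, and it was -1.05 under normexp. Myl7 had signals of 2.30 in MF, 9.22 in iHep and 43.9 in PH, and was well above background in PH only, at a level of -5.57. Actc1, the alpha actin of heart muscle, had signals of 1.71, 5.70 and 8.76 in MF, iHep and PH and was not well above background on any array. No fold can be given for Actc1.

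The natriuretic peptides are hormones that the strained heart releases to lower blood volume, and both genes are used as markers of the cardiac programme. Nppa was printed at 10 spots per array, of which 10, 8 and 8 were kept in MF, iHep and PH. Its signals ran from 7.70 to 11.9 (median 9.83) in MF, from 86.4 to 100.2 (median 91.6) in iHep and from 112.3 to 134.9 (median 118.0) in PH. The levels were -5.80 ± 0.19 (SD over spots, 10 spots of 1 array) in MF, -5.35 ± 0.07 (SD over spots, 8 spots) in iHep and -4.13 ± 0.09 (SD over spots, 8 spots) in PH. Nppa was therefore 1.37-fold higher in iHep than in MF, more than its spots varied but within the 2-fold threshold, and under normexp the same difference was -1.41.

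Nppb had signals of 36.7 in MF, 29.1 in iHep and 29.2 in PH, or levels of -3.89, -7.01 and -6.15 after scaling. It was highest in MF, and was 8.70-fold lower in iHep than in MF. Before scaling the signals of the 3 spots lay close together, while the 75th percentiles of the arrays did not. Over the alternatives run the log2 difference lay between -2.41 and -3.12. Nppa and Nppb, which lie near each other on chromosome 4, were thus ordered differently over the 3 pools, with MF lowest for Nppa and highest for Nppb; under normexp MF was the highest for both.

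Ryr2 encodes the channel that releases calcium from the sarcoplasmic reticulum of heart muscle. Its signals were 1.54 in MF, 61.4 in iHep and 3.75 in PH, and it was well above background in iHep only, at a level of -5.93. The bound against MF was at least 1.29-fold higher and that against PH at least 1.94-fold higher, and neither bound reached the threshold or excludes it. Counted without a filter on dim spots, the Ryr2 difference of iHep over MF was 2.54 on the log2 scale. When calls were made against the highest negative-control spot of each array, a choice made after seeing the data, the bound was 2.23 on the same log2 scale.

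Set beside the promoter windows, the genes with a GATA match did not move one way in iHep against MF: Tnnt2 was higher, Myh6 and Nppb were lower, Nppa was within 2-fold and Myl7 was not compared. The genes without a match were Tnni3, which was lower, Tnnc1 and Myh7, which were within 2-fold, Ryr2, for which the bound does not settle it, and Actc1, which was not compared.

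**Figure D3:**
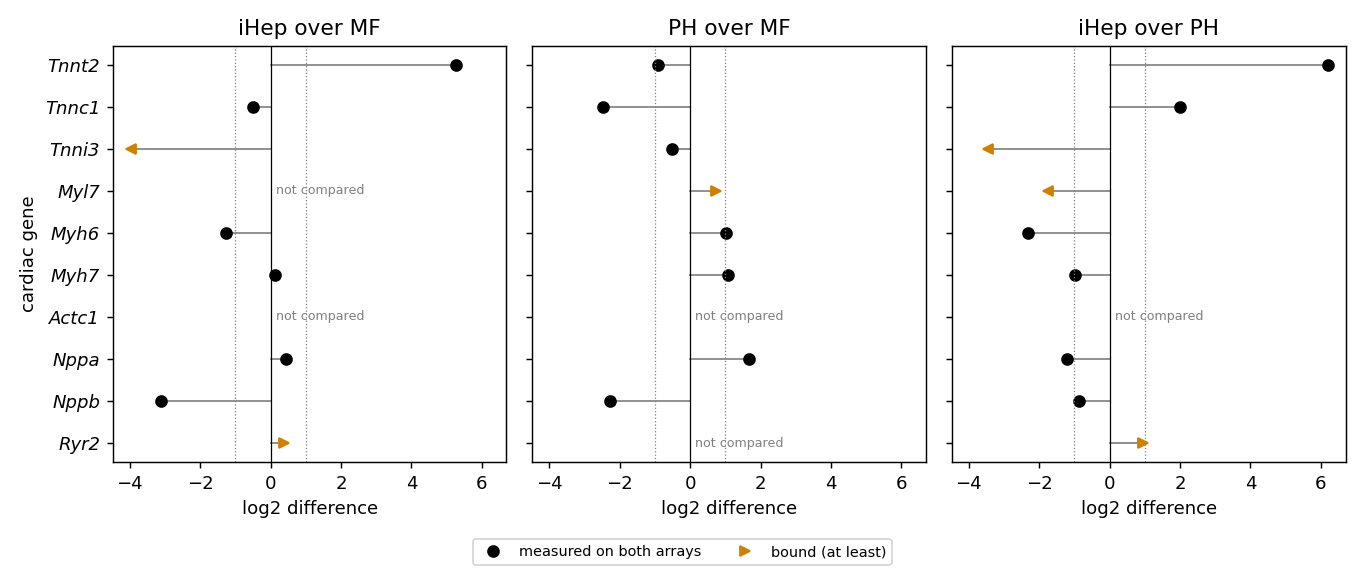
Log2 differences of the 10 cardiac genes in 3 panels, 1 for each comparison of a pair of arrays; black points were measured on both arrays, arrows are bounds that point away from 0, and dotted lines mark the 2-fold threshold. Tnnt2 stands far to the right in both comparisons that hold iHep (5.27 and 6.19) and at -0.92 for PH over MF.

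PH against MF gives the level of the same genes in the pool of primary hepatocytes, which are not contractile cells. Fibroblast, macrophage and endothelial markers were read in that pool too, and their part in these readings was not tested. Of 8 cardiac genes compared, 3 were at least 2-fold higher in PH (Myh6, Myh7 and Nppa), 2 were at least 2-fold lower (Tnnc1 and Nppb) and 3 did not pass the threshold. Over all genes 30.9% were higher and 25.4% lower by the same threshold. Nppa was 3.18-fold higher in PH than in MF, Myh7 2.13-fold and Myh6 2.05-fold. Tnnc1 was 5.56-fold lower and Nppb 4.79-fold lower. Tnnt2 was 1.89-fold lower and Tnni3 1.42-fold lower, within the threshold, but under quantile normalization their log2 differences were -1.77 and -1.26. Myl7 was at least 1.67-fold higher, a bound that does not say whether it passed 2-fold; without a filter on dim spots its log2 difference was 2.32. The median over the cardiac genes was 0.11, against 0.04 over all 17783 genes.

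At the Myh6 probe used, the 3 genes that were higher in PH stayed so under median scaling (Myh6 1.06, Myh7 1.12 and Nppa 1.70). They did not pass the threshold under quantile normalization, in the authors' values or under normexp. Under quantile normalization the differences of Myh6, Myh7 and Nppa were 0.32, 0.26 and 0.66, in the authors' values 0.31, 0.26 and 0.65, and under normexp -0.04, -0.12 and -0.34. The second Myh6 probe, marked as non-uniform in PH, gave 7.30 where marked spots were kept. Quantile normalization gave 0 cardiac genes higher and 4 lower, beside 23.6% and 31.0% of all genes, and normexp gave 0 higher and 3 lower, beside 17.9% and 28.3%. Tnnc1 and Nppb were at least 2-fold lower in PH under each of these.

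In iHep against PH, 9 cardiac genes could be compared. In iHep 2 of them passed the threshold upward, 4 passed it downward and 3 did not pass it. Over all 18001 genes compared, 23.2% passed upward and 36.0% downward. The median was -0.30 over all genes and -0.97 over the cardiac genes. Tnnt2 was 72.9-fold higher in iHep, and 69 of the 18001 genes had a larger upward difference. Tnnc1 was 3.97-fold higher. Tnni3 was at least 11.01-fold lower, Myh6 4.95-fold lower, Myl7 at least 3.38-fold lower, and Nppa differed by -1.22 on the log2 scale. Myh7 was 1.96-fold lower and Nppb 1.81-fold lower, within the threshold. Ryr2 was at least 1.94-fold higher, a bound that leaves a difference past 2-fold possible, and its log2 difference was 3.18 without a filter on dim spots.

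This comparison depended on how the arrays were scaled. Quantile normalization moved the median of all genes from -0.30 to 0.20 and gave 3 cardiac genes higher and 2 lower, where 31.1% of all genes were higher and 25.6% lower. Under it Nppa (-0.16) and Myh7 (-0.02) were within 2-fold, the bound for Myl7 (-0.63) no longer reached the threshold, Ryr2 was higher by at least 2.09 and Nppb stood at 0.28, while Tnnt2 (6.89), Tnni3 (-2.47) and Myh6 (-1.41) kept their direction and stayed past the threshold. Under normexp Tnnc1 was within the threshold at 0.49. The 3 comparisons share arrays, so that a reading on 1 array enters 2 of them.

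Within each gene the order of the 3 pools was as follows. Tnnt2 ran iHep, MF, PH from high to low. Tnnc1 ran MF, iHep, PH and Nppb MF, PH, iHep, each with MF highest. Myh6 ran PH, MF, iHep, while Nppa and Myh7 had PH highest, and for Myh7 iHep and MF did not differ beyond the spot spread. Under normexp MF was the highest pool for Myh6, Nppa and Myh7 too. Tnni3 ran MF, PH, iHep, with iHep not well above background.

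Genes with the pattern most like that of a cardiac gene were sought among 13925 genes well above background on all 3 arrays, by the Euclidean distance between levels centred on their own mean over the 3 arrays. Nearest to Tnnt2 were Cdh16, a kidney-type cadherin (distance 0.358), Pla2g2e, a secreted phospholipase (0.402), and Serpinb9f (0.443), and only these 3 lay within 0.5. Cdh16 had levels of -4.22, 1.37 and -4.64 in MF, iHep and PH. For the other cardiac genes searched, 342 genes lay within 0.5 of Tnnc1 (nearest Vps50, Dusp13 and B4galt5), 276 of Myh6 (Ndufaf3, Zfp605 and Pink1), 970 of Myh7 (Fkbp2, Sdhb and Skiv2l), 717 of Nppa (Sirt5, Ropn1l and Ogfod1) and 89 of Nppb (Nqo1, Crygs and Emilin1). Tnni3, Myl7, Actc1 and Ryr2 were not well above background on all 3 arrays and were not searched. Counts within a fixed distance depend on how far a gene's levels spread over the arrays. The centred levels ran from -2.37 to 3.82 for Tnnt2 and from -0.40 to 0.69 for Myh7. With 3 arrays these distances describe the arrays and give no test.

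Transcription factors of the heart were read as a list of 20, with Gata4 itself among them. In iHep against MF 5 of 18 compared were at least 2-fold higher, beside 19.9% of all genes, and Gata4 was 1 of the 5. Downward 6 passed, beside 23.5% of all genes, and 7 did not pass the threshold. The list median was -0.09. Normexp gave 3 higher, Gata4 again among them, and 6 lower, beside 11.7% and 30.9% of all genes. Nkx2-5, the homeobox factor of early heart, had levels of -3.50, -0.65 and 0.67 in MF, iHep and PH and was 7.19-fold higher in iHep than in MF. Hopx, a homeodomain-only protein of heart progenitors, was 4.07-fold higher and Mef2a 2.62-fold higher; the Hopx difference was 0.83 under normexp. Tbx5 went the other way, at least 14.7-fold lower in iHep, with levels of -3.45, -8.18 and -7.48, the last pair not well above background. Hand2, a factor of the right ventricle, was 5.35-fold lower, and Prdm16 at least 20.8-fold lower. On the log2 scale under normexp, Nkx2-5 stood at 1.96, Tbx5 at -3.18 and Prdm16 at -3.42. Tbx18, an epicardial factor, did not differ between iHep and MF beyond the spot spread (levels of -1.98 and -2.04) and was at least 28.9-fold lower in PH than in MF (-3.07 on the log2 scale under normexp).

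In PH against MF 8 of these 20 factors were higher, Gata4 among them, 4 were lower and 8 did not pass the threshold. All genes compared gave 30.9% higher and 25.4% lower, and the median of the list was 0.65. Normexp gave 5 higher and 5 lower (median 0.00), quantile normalization 6 and 5 (0.03), and the authors' values 2 and 4 of 13 compared (0.00). Nkx2-5 was 18.0-fold higher in PH than in MF and Hopx 42.8-fold higher, so both were higher in PH than in iHep as well. In iHep against PH 4 of 19 passed the threshold upward and 12 downward, Gata4 among the 12, beside 23.2% and 36.0% of all genes. The list median was -1.53, and Hand2 was 17.9-fold lower in iHep. Quantile normalization gave 4 higher and 9 lower for that comparison, beside 31.1% and 25.6% of all genes, with a list median of -0.77.

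Of 20 other genes of the cardiac sarcomere, 19 were measured, and of the 14 compared between iHep and MF, 3 passed the threshold upward, 6 downward and 5 did not pass it. All genes compared gave 19.9% upward and 23.5% downward. Under normexp 2 of the list passed upward and 8 downward, beside 11.7% and 30.9% of all genes. Myom2, an M-band protein, was at least 21.8-fold higher in iHep than in MF, with levels of -7.26, -1.86 and -8.90, and only the iHep reading was well above background; the bound was 1.24 on the log2 scale under normexp. Ankrd1, a stress-response protein of the sarcomere that other cells also make, had levels of 1.22, 3.40 and -4.48 and was 4.52-fold higher. Tpm1, the alpha tropomyosin, was 6.01-fold lower at the probe used, while the other 4 of its 5 probes were within 2-fold, from 0.06 in MF to -0.52 in iHep, from -0.53 to -0.42, from -0.12 to 0.29 and from -0.34 to -0.39. Csrp3, a Z-disc protein, was dim in MF and iHep, not well above background, and was read at 0.28 in PH.

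Calcium handling and ion channel genes were lower in iHep than in MF for 8 of 16 compared, and higher for 3. All genes compared gave 23.5% lower and 19.9% higher. The list median was -1.08, against 0.00 over all genes. Under normexp the counts were 12 lower and 1 higher, beside 30.9% and 11.7% of all genes. The list median was then -1.59, against -0.21 over all genes. Kcnh2, the channel of the rapid delayed rectifier current, was 8.62-fold higher in iHep (levels of -3.52, -0.41 and -5.69). Kcnq1, of the slow delayed rectifier, was at least 2.36-fold higher in iHep than in MF and highest in PH, at 1.05; the iHep bound was 0.00 under normexp. Fkbp1b, which binds the ryanodine receptor, was 59.9-fold lower in iHep than in MF. On the log2 scale Kcnh2 stood at 1.98 and Fkbp1b at -4.68 under normexp, and Fkbp1b at -4.14 in the authors' values.

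The rest of the natriuretic peptide axis holds its receptors and processing enzymes. Of 4 genes compared between iHep and MF, 0 were higher and 2 were lower, beside 19.9% and 23.5% of all genes. Npr3, the clearance receptor, had levels of 0.77, -7.05 and -4.02 in MF, iHep and PH and was 225.9-fold lower in iHep than in MF, a log2 difference of -7.82 that was -5.95 under normexp. Npr2, the receptor for C-type peptide, was 2.47-fold lower. Npr1, the receptor of the peptides that Nppa and Nppb encode, was not well above background in MF and had levels of -5.76 in iHep and -3.02 in PH, the order of Nppa.

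Genes with products close to the cardiac ones were read to show what else in the families differed. Among cytoplasmic and smooth muscle forms, 9 of 11 compared were lower in iHep than in MF and 1 was higher, beside 23.5% and 19.9% of all genes. The list median was -2.18. Under quantile normalization 7 were lower, beside 21.0% of all genes, with a list median of -1.39. Myl9, the smooth muscle regulatory light chain, was 3457-fold lower (levels of 5.61 and -6.15), Acta2 681.5-fold lower and Actg2 579.4-fold lower. Myh14 was the gene that was higher, by 2.10-fold, but its other probe ran the opposite way, from -3.66 in MF to -5.89 in iHep. Under normexp the log2 differences were -10.51 for Myl9 and -7.92 for Actg2, and under quantile normalization -8.74 for Acta2. Among 12 skeletal muscle forms compared, 0 were higher and 4 were lower, beside 19.9% and 23.5% of all genes, with a list median of 0.17. Under normexp 6 were lower, beside 30.9% of all genes, and the list median was -0.97. Acta1, the skeletal alpha actin, had levels of 3.22, -6.29 and -5.69 and was 727.0-fold lower in iHep than in MF, a log2 difference of -9.51 that was -8.14 under normexp. Myh2, a fast skeletal heavy chain, had a level of -1.45 in PH, and its MF and iHep spots did not stand well above background.

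**Figure D4:**
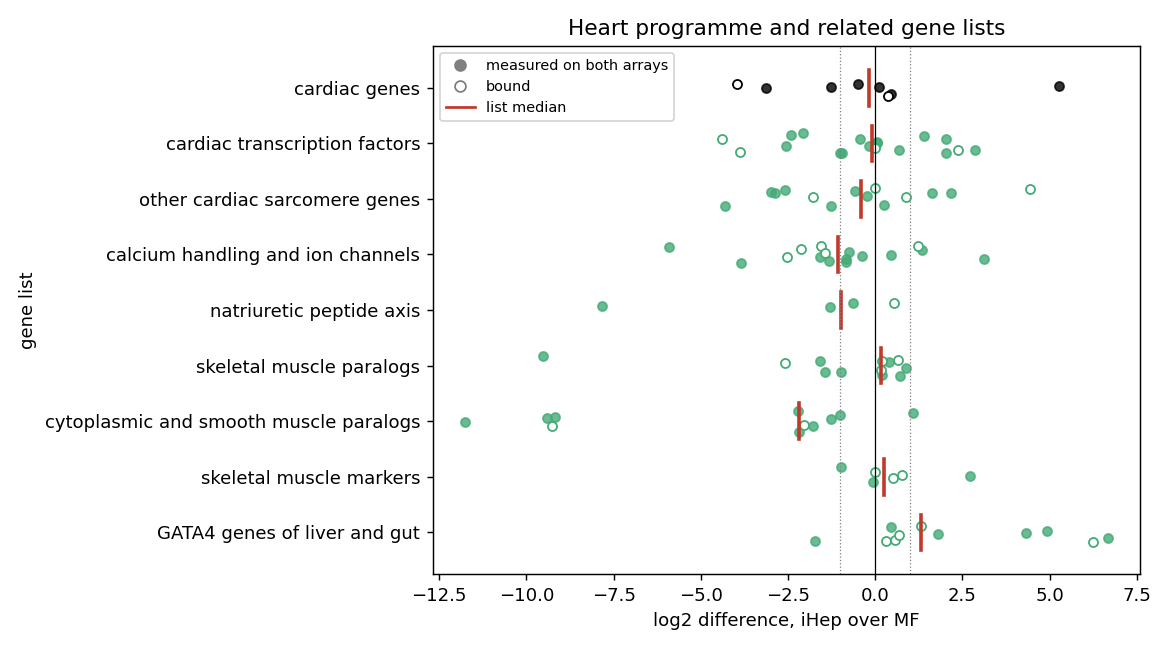
Log2 differences of iHep over MF for the cardiac genes (black) and 8 related lists (green), 1 point per gene compared, with open points for bounds, red bars for list medians and dotted lines at the 2-fold threshold. The cardiac genes have a median of -0.18 and Tnnt2 lies apart at 5.27, while cytoplasmic and smooth muscle paralogs have a median of -2.18 and GATA4 genes of liver and gut one of 1.31.

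Liver and gut genes known to be acted on by GATA4 or its partners were read as a further list. The labels do not name the factors of LV-3TF, and whether GATA4 had a part in these readings was not tested. Of 11 compared between iHep and MF, 6 were at least 2-fold higher, 1 was lower and 4 did not pass the threshold. All genes compared gave 19.9% higher and 23.5% lower. The list median was 1.31 (0.00 under normexp). Hnf4a, a nuclear receptor of hepatocytes, had levels of -5.62, 1.04 and 6.0 and was 101.1-fold higher in iHep than in MF, a log2 difference of 6.66 that was 4.07 under normexp. Alb, albumin, was 1.37-fold higher in iHep than in MF, at levels of -4.75 and -5.20 against 6.67 in PH; under normexp it was lower, by a log2 difference of -1.23. In PH against MF 10 of 12 of these genes were higher, beside 30.9% of all genes.

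Markers of muscle cell types were read as a whole beside these results. Of 10 cardiomyocyte markers, which include 5 of the cardiac genes, MF had 7 above background, iHep 6 and PH 7. Over all named genes the shares above background were 72.9%, 79.6% and 84.5%. The summed levels of these markers were 0.427, 3.95 and 1.88 times the 75th percentile. In iHep Tnni3, Actc1, Mybpc3 and Pln were not above background, and Tnnt2 led the sum. Of 8 skeletal muscle markers, summed levels were 0.0848, 0.225 and 0.509, with Myf5 and Myf6 not above background in iHep. Myod1, the myogenic regulator, had levels of -5.59, -2.86 and -1.84 and was 6.64-fold higher in iHep than in MF, but 0.39 under normexp. Smooth muscle markers were lower in iHep than in MF for 5 of 6, beside 23.5% of all genes, with a list median of -7.52. No cell type was named from these readings.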

How the data were processed

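RNA of the MF, iHep and PH pools was read on 1 array each. The deposited scanner files hold spot intensity on a linear scale, background-subtracted and detrended per the file headers (Feature Extraction 11.0.1.1; the submitters' processing notes name 9.1), on a design annotated on mm9. The labels' extract protocol names a blood RNA kit with globin removal. The deposited value table holds the authors' log2 values for 26049 probes; their scale and centring stay unknown (medians 7.02, 7.01 and 7.07; correlation with the scanner values 0.997, 0.998 and 0.994; same direction), and they served as an alternative.

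Spots marked non-uniform or as population outliers were dropped (190, 230 and 383 of 43020 on MF, iHep and PH), and none was saturated. Spots of 1 probe were averaged. Probes were named through RefSeq accessions (GRCm38.p6); 27228 of 39429 had 1 symbol. The brightest probe stood for a gene. Genes well above background numbered 15004, 16371 and 17376. Differences were counted at 2-fold, with no test. Alternatives were normexp (offset 50, limma 3.58.1 in R 4.3.3), quantile and median scaling, other filters, thresholds and probe rules. Normexp was run on median signals in place of the planned mean signals, which the deposited scans do not hold. The difference script was tested on simulated data.

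The members and lists were chosen with earlier results of these data known. Named genes were all members; up to 8 genes each of the transcription factor and paralog lists and up to 4 of each other list, by their greatest difference of at least 2-fold; the 2 highest markers of each other cell type on each array; and the 3 nearest patterns. Mybpc3, Pln and Myf5 were named after their values were seen. Some genes that the rule names are not reported here. A planned comparison of protein sequences was not run.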

Additional observations from a re-analysis of the deposited data

How the results depend on the processing

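With 1 array per group no replicate could be left out, and no paired analysis was possible because each group has 1 array. Counts of cardiac genes past the threshold moved by over 1.5 times as follows, with the share of all genes past it in brackets. For iHep over MF, genes higher were 1, against 0 in the authors' values (20.8%; Tnnt2 was not compared there), 2 without a filter on dim spots (21.6%) and 2 with calls made against negative controls (22.6%); genes lower were 3, against 6 under normexp (30.9%). For PH over MF, genes higher were 3, against 0 under normexp (17.9%), 0 under quantile normalization (23.6%), 0 in the authors' values (23.1%) and 0 at 4-fold (18.4%); genes lower were 2, against 4 under quantile normalization (31.0%). For iHep over PH, genes higher were 2, against 1 under normexp (20.2%) and 1 at 4-fold (10.04%); genes lower were 4, against 2 under quantile normalization (25.6%), 1 in the authors' values (24.7%), 2 at 4-fold (21.4%) and 2 where genes had to be above background on all arrays (28.8%). The differences past 2-fold that reversed were Myh6 in iHep over MF with marked spots kept (0.02) and, under normexp, Myh6 (-0.04), Myh7 (-0.12) and Nppa (-0.34) in PH over MF; with marked spots kept Myh6 was 7.30 in PH over MF and -7.28 in iHep over PH, through the second probe. Differences within 2-fold also changed sign: in iHep over MF under normexp Nppa (-1.41) and Myh7 (-1.05), and in iHep over PH Nppb under quantile normalization (0.28) and in the authors' values (0.19). The cause of the other changes was not tested. Tnnt2 was higher in iHep under every alternative that gave it a value, from 4.27 to 5.28 against MF and from 5.49 to 6.89 against PH. Tnni3 was lower in iHep than in MF from -2.95 to -5.46. Median scaling and the mean of probes moved none of the 25 differences by more than the spread of replicate spots. Alternatives added after seeing the data were the common floor and the negative-control calls. Normexp adds the same offset of 50 to every signal before arrays of unequal brightness are scaled, and on the MF array the processed signals of all the cardiac genes but Tnni3 were below that size.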
